A study of Mus musculus with 12 samples.

Results

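The interleukin-6 (IL-6) family of cytokines and the STAT3 signalling below it were followed through 9 genes of 15774 in the deposited count tables. They were chosen by name and comprise 5 ligand genes (Il6, Il11, Lif, Clcf1 and Osm), 2 receptor subunit genes (Osmr and Il6st), the transcription factor gene Stat3 and the feedback inhibitor gene Socs3. All mice were wild-type C57BL/6J, and all libraries were made from astrocytes that were sorted by fluorescence from the cerebral cortex. The stroke model was a permanent tie of the distal middle cerebral artery together with 7 min of closure of both common carotid arteries, and sham mice had only the skull surface lesioned. Libraries came from sham mice and from mice 1, 3, 7, 21 and 60 days after stroke, with 2 libraries in each of the 6 groups. The sort marker, the mice's age and when sham cells were collected are not given in the sources used here, so age and time since surgery cannot be told apart from the time after stroke. Nothing says whether the replicates came from different mice or from pools, and every p-value measures only the spread between these samples.

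Cytokines of this family bind a ligand-specific receptor chain and signal through a shared subunit, gp130, which Il6st encodes. Bound receptors activate Janus kinases, which phosphorylate STAT3, and STAT3 then enters the nucleus and induces its targets, among them its own inhibitor Socs3. In astrocytes the pathway is known for driving reactive gliosis and scar formation after injury. RNA levels do not report the phosphorylation of STAT3.

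Replicate 1 of each group held 13006008 to 16575045 counts and replicate 2 held 97056596 to 156128922, so a level near 0 was measured far more precisely in replicate 2. All 10 astrocyte markers examined were present in all 12 libraries, with a summed level of 1393 to 11985 CPM (gene counts scaled to library size by the TMM method). On day 7, 7 of these 10 were called lower than sham, among them Aldoc and Slc1a2, where 19.8% of all genes were. The connexin genes Gja1 and Gjb6 were called higher (2.27 ± 0.53 and 1.31 ± 0.39). Other cell types' markers were present too. In the sham libraries the list of 12 oligodendrocyte lineage markers summed to 10361 and 9969 CPM, above the astrocyte list at 8524 and 7277 CPM. A list of 8 fibroblast markers, 3 of them collagen genes, summed to 60.5 and 70.2 CPM in sham and to 89433 and 288780 CPM on day 7. Of 8 neuron markers 7, 8, 8, 8 and 8 were called lower than sham on days 1, 3, 7, 21 and 60. Over all genes 13.9% to 19.8% were called lower. In such bulk samples fewer cells of a type and less RNA per cell cannot be told apart.

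**Figure D1:**
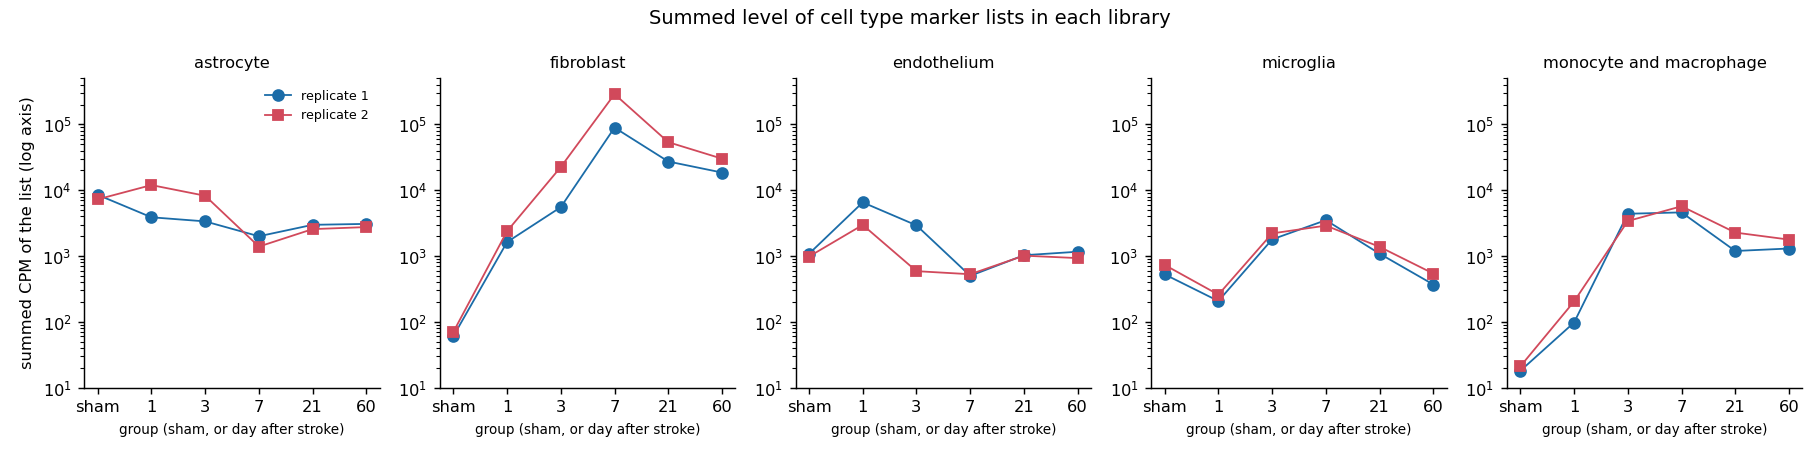
Summed CPM (log axis) of 5 of the cell type marker lists in each library, by group, with circles for replicate 1 and squares for replicate 2. The fibroblast list peaked in both day 7 libraries, at 89433 and 288780 CPM, and the endothelial list peaked in both day 1 libraries, at 6543 and 2973 CPM.

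All 5 ligand genes rose on day 1, and from there their courses parted. Il11, Lif and Clcf1 had their highest level on day 1 in both replicates and were far below it by day 3. Osm was highest on day 3 in replicate 1 and on day 7 in replicate 2. Il6 was highest on day 1 but was still well above sham on day 60. The receptor subunit genes, Stat3 and Socs3 stayed above sham at all 5 times, and the receptor subunit genes were highest on day 21.

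Each time was compared with the same 2 sham libraries, so the 5 comparisons share them. A gene was called at a Benjamini-Hochberg adjusted p under 0.05 over 15635 genes in edgeR's quasi-likelihood test, and changes are log2 fold changes ± standard error with n = 2 per group. On day 1, 9 of 9 genes were called higher than sham, where 16.7% of all genes tested were called higher (30.5% in either direction, 13.9% lower). On day 3, 8 of 9 were called higher, against 18.0% of all genes (32.2% in either direction, 14.2% lower). On day 7 it was 7 of 9, against 23.2% (43.0% in either direction, 19.8% lower). On day 21 it was 6 of 9, against 17.8% (33.2% in either direction, 15.4% lower). On day 60 it was again 6 of 9, against 16.8% (31.5% in either direction, 14.8% lower). None was called lower in any of these comparisons, although Lif on day 60 was called lower in some of the alternative fits given with that gene. The median log2 change of the 9 genes was 5.40, 3.31, 3.04, 3.71 and 2.87 on days 1, 3, 7, 21 and 60, where that of all genes tested was between 0.01 and 0.16.

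**Figure D2:**
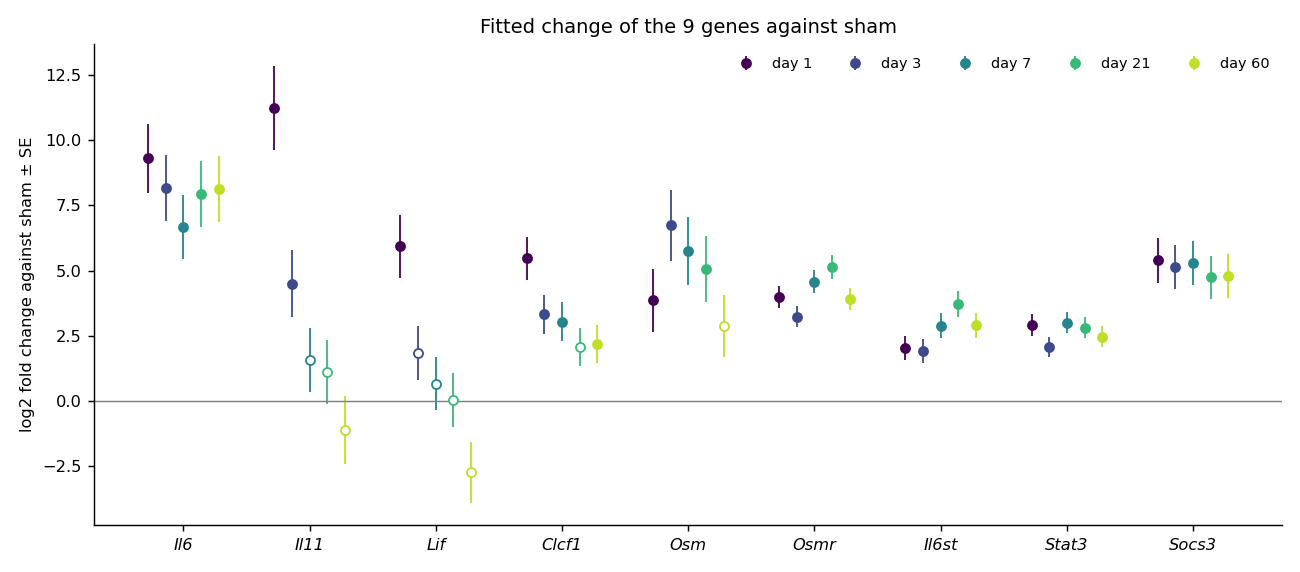
Log2 fold change against sham ± standard error (vertical axis) of each of the 9 genes (horizontal axis) at the 5 times, where filled circles were called and open circles were not. Il11 and Lif fell back toward 0 after day 1, while Osmr, Il6st, Stat3 and Socs3 stayed filled at every time.

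The ligand genes come first. Il6 (mouse build GRCm38, chr5:30013114-30019981, + strand) encodes interleukin-6, a secreted cytokine of the acute phase response. Il11 (chr7:4772373-4782859, - strand) encodes interleukin-11, and Lif (chr11:4257557-4272514, + strand) encodes leukemia inhibitory factor. To show the sequence before the start of these 3 early genes, the bases just upstream of the start are printed below from RefSeq's GRCm38.p6 annotation, with matches to the searched motifs in capitals. Windows of 250 bases were matched for 7 of the 9 genes, not for Clcf1 and Osm, and printing stops where an annotated exon of the gene begins. The Il6 and Lif stretches end next to the first base of the gene. Il11 has 2 windows: the stretch shown lies before its downstream start, in an intron of the longest gene model, and the window before the upstream start held none of the 7 motifs.
Il6, chr5:30012864-30013113, + strand: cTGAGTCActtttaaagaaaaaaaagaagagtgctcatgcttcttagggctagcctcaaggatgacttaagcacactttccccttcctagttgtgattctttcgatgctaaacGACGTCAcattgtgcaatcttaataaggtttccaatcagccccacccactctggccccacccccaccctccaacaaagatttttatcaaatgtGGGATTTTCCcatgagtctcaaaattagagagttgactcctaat
Il11, chr7:4778142-4778391, - strand: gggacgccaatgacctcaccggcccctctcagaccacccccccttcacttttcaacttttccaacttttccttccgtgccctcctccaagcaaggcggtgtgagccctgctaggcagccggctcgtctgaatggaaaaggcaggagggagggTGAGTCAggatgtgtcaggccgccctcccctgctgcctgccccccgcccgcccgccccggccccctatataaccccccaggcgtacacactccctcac
Lif, chr11:4257318-4257556, + strand: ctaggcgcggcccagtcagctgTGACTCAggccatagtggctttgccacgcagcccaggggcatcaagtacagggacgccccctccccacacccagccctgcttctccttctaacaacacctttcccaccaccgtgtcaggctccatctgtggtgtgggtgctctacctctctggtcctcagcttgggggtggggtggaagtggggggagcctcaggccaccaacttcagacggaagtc

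Motifs were searched on both strands of the 250 bases, and they were chosen after the windows had been read. All 3 stretches hold the AP-1 letters TGAGTCA or their reverse complement TGACTCA, which 4.46% of 32851 promoter windows of the same length hold. The Il6 stretch also holds TGACGTC on the reverse strand, part of the cyclic AMP response element, which 2.78% of windows hold. It further holds GGGATTTTCC, a match to the NF-kB motif that 0.356% of windows hold, at 44 to 35 bases before the start. The cyclic AMP response element TGACGTCA contains TGACGTC, so these 2 searches overlap. No match to the STAT letters TTCNNNGAA (7.02% of windows), to TGACGTCA (1.55%), to the C/EBP letters TTGCGCAA (0.164%) or to TATAAA (12.4%) was found in these 3 windows. Each search took only the letters given. The Il6 stretch holds ttgtgcaa, which differs from the C/EBP letters by a single base and was not counted. A match describes letters in a window and is not evidence of binding, and the lack of a match is not evidence that a site is absent.

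Il6 was nearly absent from sham cells and present in all stroke libraries. Its levels in replicates 1 and 2 were 0.179 and 0.0192 CPM in sham (3 and 2 counts), 50.8 and 22.3 CPM on day 1, 29.1 and 4.28 on day 3, 6.05 and 5.67 on day 7, 14.2 and 14.1 on day 21, and 21.6 and 10.9 on day 60. The sham libraries lay below every stroke library, and day 7 lay below days 1, 21 and 60. With the counts of both libraries pooled, Il6 on day 1 was 636 times its sham level (95% exact interval 272 to 1960.5), and on day 60 it was 292 times (125 to 901). These intervals cover counting error only. The fitted log2 change was 9.31 ± 1.31 on day 1 (adjusted p = 0.00169), 6.67 ± 1.24 on day 7 (adjusted p = 0.0019) and 8.14 ± 1.28 on day 60 (adjusted p = 0.00151). Because sham held so few counts, the size of the fitted change moved with the sham libraries: without sham replicate 2 the day 1 change was 7.65, and it was called in 12 of 12 fits that left out 1 library.

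Il11 had the steepest rise and fall of the 9 genes. Its levels in replicates 1 and 2 were 0.836 and 0.0577 CPM in sham, 1005 and 743 CPM on day 1, 14.2 and 2.27 on day 3, 0.806 and 1.26 on day 7, 0.672 and 0.842 on day 21, and 0 and 0.239 on day 60. Both day 1 libraries stood far above all others, and from day 7 on the levels overlapped those of sham. A count of 0 in the shallower day 60 library allows up to 3 counts, which in that library is 0.172 CPM. The log2 change against sham was 11.24 ± 1.63 on day 1 (adjusted p = 0.00184) and 4.49 ± 1.28 on day 3 (adjusted p = 0.0232). The day 3 call was lost without sham replicate 2 (3.28, adjusted p = 0.103) and without day 3 replicate 1 (2.61, adjusted p = 0.149). On days 7, 21 and 60 no change was called, at 1.56 ± 1.22, 1.09 ± 1.22 and -1.12 ± 1.29.

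Lif followed Il11 at lower levels. Replicates 1 and 2 held 0.657 and 1.43 CPM in sham, 109.5 and 23.8 on day 1, 7.15 and 0.859 on day 3, 2.42 and 1.09 on day 7, 1.79 and 0.528 on day 21, and 0.172 and 0.152 on day 60. Day 1 was above every other group, days 3, 7 and 21 overlapped sham, and both day 60 libraries were the lowest of the 12. Lif rose on day 1 by 5.94 ± 1.21 (adjusted p = 0.00658), a call that was lost without sham replicate 1 (5.54, adjusted p = 0.0525). On day 3 the change was 1.85 ± 1.04 (adjusted p = 0.197) and on day 7 it was 0.65 ± 1.03. On day 21 it was 0.03 ± 1.04 and took the other sign, -0.093, with DESeq2's size factors. On day 60 the change of -2.76 ± 1.18 missed the threshold (adjusted p = 0.0993). It passed with the replicate number as a block (-2.85, adjusted p = 0.0214), in DESeq2 (-2.83, adjusted p = 0.0184), and without either day 3 library (adjusted p = 0.0439 and 0.0432).

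Clcf1 (chr19:4214238-4223490, + strand) encodes cardiotrophin-like cytokine factor 1, which signals through the ciliary neurotrophic factor receptor. Its exons share positions with another gene model on the same strand, AC109138.7, so reads of both cannot be told apart. Replicates 1 and 2 held 0.119 and 0.202 CPM in sham, 9.78 and 5.38 on day 1, 1.71 and 1.70 on day 3, 1.34 and 1.46 on day 7, 0.896 and 0.546 on day 21, and 0.974 and 0.595 on day 60. Every stroke library lay above both sham libraries, and the order ran from day 1 through days 3 and 7 to days 60 and 21, which overlapped each other.

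Clcf1 rose by 5.46 ± 0.82 on day 1 (adjusted p = 0.00214), 3.31 ± 0.76 on day 3 (adjusted p = 0.00895) and 3.04 ± 0.75 on day 7 (adjusted p = 0.00873). The calls on days 3 and 7 were lost without sham replicate 1 (adjusted p = 0.059 and 0.0579). On day 21 the change of 2.05 ± 0.74 missed the threshold (adjusted p = 0.0553), which it passed with the replicate block (1.95, adjusted p = 0.0493) and in DESeq2 (1.88, adjusted p = 0.047). On day 60 the change was 2.17 ± 0.74 (adjusted p = 0.0472). That call was held in 0 of 12 fits that left out 1 library, with adjusted p between 0.0591 and 0.181, and it was lost with DESeq2's size factors (adjusted p = 0.054).

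Osm (chr11:4236420-4241026, + strand) encodes oncostatin M, a cytokine known mainly from myeloid cells, and lies upstream of Lif on the same strand. Replicates 1 and 2 held 0.358 and 0.962 CPM in sham, 17.3 and 3.44 on day 1, 135 and 17.1 on day 3, 54.7 and 21.4 on day 7, 30.9 and 16.8 on day 21, and 8.76 and 1.78 on day 60. Every stroke library was above both sham libraries, but the 2 replicates lay far apart. Each of days 3, 7 and 21 overlapped the time before it, while day 60 lay below days 3, 7 and 21. In each of the 5 stroke groups replicate 1 was the higher one, by up to 7.88-fold.

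Osm rose by 3.86 ± 1.22 on day 1 (adjusted p = 0.0362), 6.74 ± 1.37 on day 3 (adjusted p = 0.0053), 5.74 ± 1.32 on day 7 (adjusted p = 0.00578) and 5.07 ± 1.28 on day 21 (adjusted p = 0.0132). The day 3 call was kept in 12 of 12 fits that left out 1 library. The day 1 call was lost without either sham library, without day 1 replicate 1 or without day 21 replicate 1 (adjusted p = 0.17, 0.102, 0.24 and 0.0514). The day 7 call was lost without sham replicate 1 (adjusted p = 0.0503), and the day 21 call without sham replicate 1 or 2 (adjusted p = 0.0884 and 0.0544). On day 60 the change of 2.87 ± 1.18 was not called (adjusted p = 0.0879), but it was in DESeq2 (2.85, adjusted p = 0.0128).

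The monocyte and macrophage markers were also higher after stroke. Their 8 genes summed to 18.0 and 21.1 CPM in sham, 97.7 and 204 on day 1, 4393 and 3406 on day 3, 4609 and 5714 on day 7, 1194 and 2275 on day 21, and 1303 and 1779 on day 60. On day 3, 6 of the 8 were called higher than sham, where 18.0% of all genes were, and Lyz2 alone gave 4108 and 3194 CPM of the sum. From day 21 to day 60 the sum, mostly Lyz2, rose in replicate 1 and fell in replicate 2, while Osm fell in both. Ptprc, Ccr2 and F13a1 fell in both replicates as well, Ms4a7 and Plac8 rose in both, and Lyz2, Mrc1 and Cd163 differed between replicates. On day 1 Osm was higher in replicate 1, as were Ptprc, Ccr2, Mrc1, Cd163 and F13a1. The sum, Lyz2, Ms4a7 and Plac8 were higher in replicate 2. Of the 8, Plac8 was at 0 in sham replicate 1, Ccr2 in sham replicate 2 and Cd163 in day 60 replicate 1. The 8 microglial markers summed to 527 and 733 CPM in sham and to 3511 and 2902 CPM on day 7, with none at 0. Their sum was below sham in each replicate on day 1 (207 and 259 CPM) and on day 60 (369 and 542 CPM). On these days 2 and 4 of the 8 were called lower and none higher, where 13.9% and 14.8% of all genes were called lower. The 9 neutrophil markers summed to 18.9 and 7.56 CPM in sham, 147 and 137 on day 3, 81.7 and 97.1 on day 21, and 7.96 and 16.2 on day 60. On day 7 Csf3r held 62.5 and 42.7 CPM and Mmp8 38.6 and 29.6 CPM, while each of the others was below 1 CPM. Csf3r alone gave 41.3 and 55.2 CPM of the day 21 sum. Of them 1, 5, 2, 4 and 0 were called higher on days 1, 3, 7, 21 and 60, where 16.7%, 18.0%, 23.2%, 17.8% and 16.8% of all genes were. The counts on days 1, 7 and 60 are thus not above that share. On day 7, 1 of the 9 was called lower, where 19.8% of all genes were. Up to 4 neutrophil markers were at 0 in a sham library, among them Ltf in both. The part of these cells in the Osm signal was not tested. The endothelial markers were highest on day 1, when Il11, Lif and Clcf1 were: 8 genes summed to 1082 and 982 CPM in sham and to 6543 and 2973 CPM on day 1, with none at 0. On that day 6 of the 8 endothelial markers were called higher, where 16.7% of all genes were. Their part in the early ligand levels was not tested either.

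**Figure D3:**
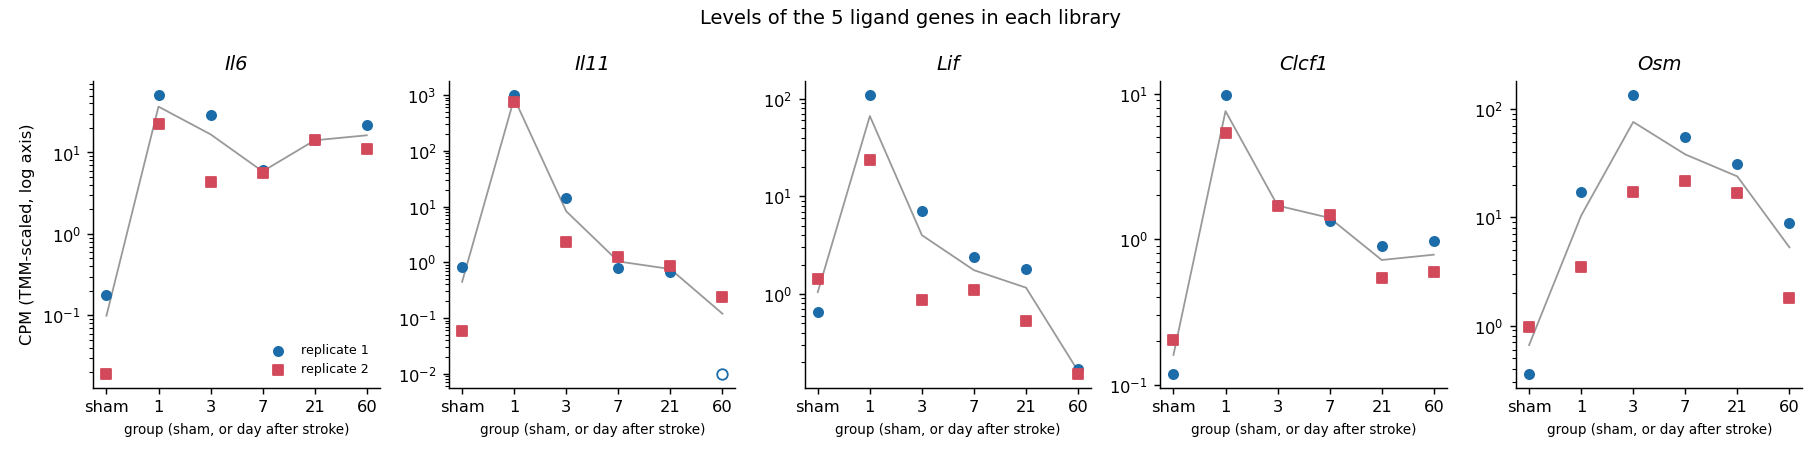
Level of each ligand gene in CPM (log axis) in each library, by group, with circles for replicate 1, squares for replicate 2, a line through the group means and an open circle for a count of 0. Il11, Lif and Clcf1 have a single peak on day 1, Osm peaks on day 3 or 7, and Il6 remains above sham up to day 60.

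Levels per kilobase of exon allow the ligands to be set beside each other. Summed over the 5 ligands, the level per kilobase was 0.816 and 0.842 CPM in sham, 539 and 374 on day 1, 80.2 and 11.03 on day 3, 27.9 and 13.02 on day 7, 20.4 and 13.9 on day 21, and 13.05 and 5.59 on day 60. The ligand that made up most of this sum changed with time. Il11 held 89.6% and 95.3% of it on day 1. Osm held 74.0% and 68.2% on day 3, 86.4% and 72.5% on day 7, and 66.6% and 53.4% on day 21. On day 60 Il6 held 68.2% and 80.5%, and Osm 29.6% and 14.1%. In sham no ligand led in both libraries, where Il11 held 49.3% and 3.30%, and the sum rested on few counts. These shares are descriptions of 2 libraries per group and were not tested.

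**Figure D4:**
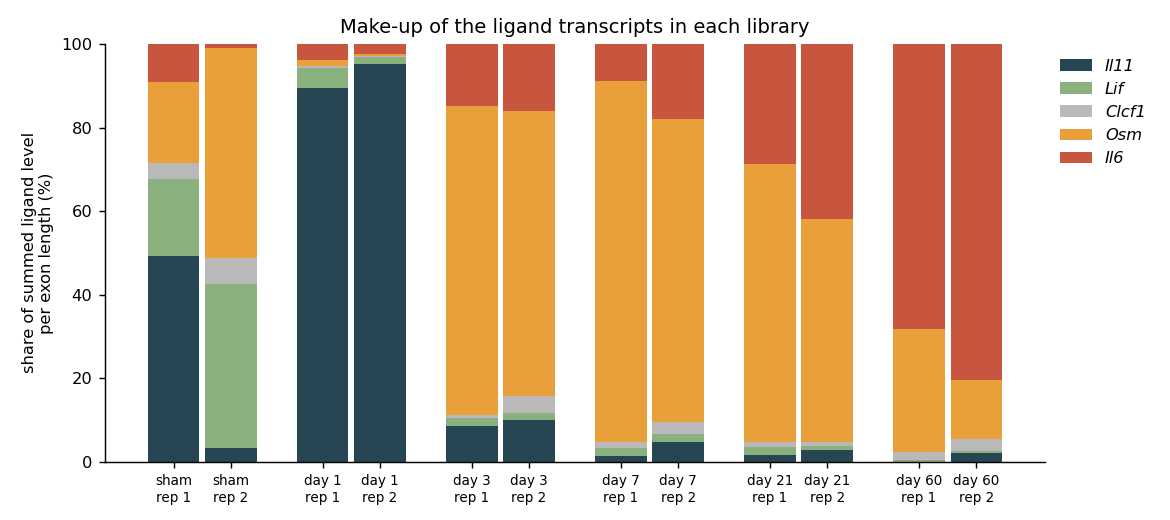
Share (%) of the summed level per exon length that each of the 5 ligand genes held in each of the 12 libraries. Il11 filled 89.6% and 95.3% on day 1, Osm filled most of the bar from day 3 to day 21, and Il6 filled 68.2% and 80.5% on day 60.

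The receptor subunit genes took another course. Osmr (chr15:6813577-6874969, - strand) encodes the oncostatin M receptor chain that pairs with gp130. Its levels in replicates 1 and 2 were 6.57 and 7.11 CPM in sham, 118 and 99.8 on day 1, 63.5 and 64.7 on day 3, 162 and 165 on day 7, 262 and 221 on day 21, and 63.9 and 140.2 on day 60. Every stroke library was at least several times above sham, days 21 and 7 did not overlap any other group, and day 60 overlapped day 1 and day 3. Osmr rose by 3.99 ± 0.42 on day 1 (adjusted p = 0.000611), 3.23 ± 0.41 on day 3, 4.58 ± 0.43 on day 7, 5.14 ± 0.44 on day 21 (adjusted p = 7.1e-05) and 3.90 ± 0.42 on day 60. All 5 calls were kept in 12 of 12 fits that left out 1 library.

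Il6st (chr13:112464070-112510086, + strand), the gene of gp130, was already well expressed in sham. Replicates 1 and 2 held 33.7 and 54.0 CPM in sham, 218 and 138 on day 1, 211 and 122 on day 3, 351 and 294 on day 7, 653 and 494 on day 21, and 231 and 421 on day 60. Sham was below every stroke library and day 21 was above every other library, while days 1 and 3 overlapped, as did days 7 and 60. Il6st rose by 2.02 ± 0.46 on day 1 (adjusted p = 0.0102), 1.92 ± 0.46 on day 3 (adjusted p = 0.0109), 2.88 ± 0.48 on day 7, 3.71 ± 0.49 on day 21 (adjusted p = 0.000574) and 2.89 ± 0.48 on day 60. The day 1 call was lost without sham replicate 1 or day 1 replicate 1 (adjusted p = 0.0818 and 0.0666). The day 3 call was lost without sham replicate 1 or day 3 replicate 1 (adjusted p = 0.0879 and 0.07).

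Stat3 (chr11:100885098-100939540, - strand) encodes the transcription factor that carries the signal to the nucleus. Its exons share positions with Stat5a on the opposite strand, and since the strand setting of the counting is not given in the sources used here, reads of both cannot be told apart there. Replicates 1 and 2 held 54.1 and 78.6 CPM in sham, 486 and 510.4 on day 1, 274 and 281 on day 3, 427 and 634 on day 7, 393 and 531 on day 21, and 277 and 455 on day 60. All stroke libraries were above sham, day 3 lay below days 1, 7 and 21, and day 60 lay below day 1. The other pairs of stroke groups overlapped, and replicate 2 was the higher one in 6 of 6 groups. Stat3 rose by 2.91 ± 0.41 on day 1 (adjusted p = 0.00167), 2.06 ± 0.39 on day 3, 2.998 ± 0.408 on day 7, 2.80 ± 0.41 on day 21 and 2.46 ± 0.40 on day 60. All 5 calls were kept in 12 of 12 fits that left out 1 library.

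Socs3 (chr11:117966079-117970047, - strand) encodes the inhibitor that binds gp130 and its Janus kinases and shuts off the signal. The stretch before its RefSeq start is shown because Socs3 is a known direct target of STAT3, with a match to TTCNNNGAA in capitals. It lies in an intron of the longer GENCODE gene model.
Socs3, chr11:117969452-117969616, - strand: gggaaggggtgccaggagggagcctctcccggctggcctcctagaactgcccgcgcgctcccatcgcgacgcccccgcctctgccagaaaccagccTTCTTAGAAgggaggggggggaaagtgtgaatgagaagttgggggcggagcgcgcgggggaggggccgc
This match lies 154 to 146 bases before the start. Among the windows of the 7 matched genes, the STAT letters were found only in that of Socs3, and none of the 7 motifs was found in those of Osmr, Il6st and Stat3.

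Socs3 levels in replicates 1 and 2 were 9.91 and 5.73 CPM in sham, 514 and 144 on day 1, 427 and 124 on day 3, 415 and 194 on day 7, 253 and 161 on day 21, and 265 and 164 on day 60. The stroke groups all overlapped one another and all lay above sham, and replicate 1 was higher in 6 of 6 groups, by 1.57-fold to 3.57-fold. Socs3 rose by 5.40 ± 0.86 on day 1 (adjusted p = 0.00267), 5.14 ± 0.85 on day 3, 5.29 ± 0.86 on day 7, 4.73 ± 0.84 on day 21 and 4.78 ± 0.84 on day 60 (adjusted p = 0.00268). All 5 calls were kept in 12 of 12 fits that left out 1 library, though the day 1 change was 4.16 without day 1 replicate 1.

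**Figure D5:**
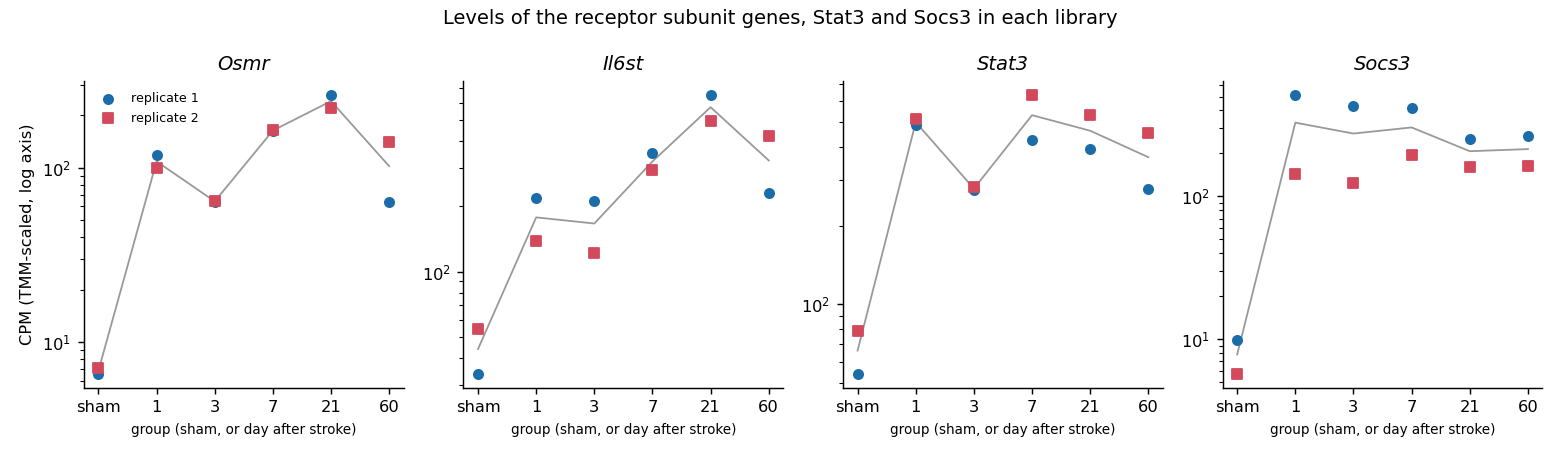
Level of Osmr, Il6st, Stat3 and Socs3 in CPM (log axis) in each library, by group, with circles for replicate 1, squares for replicate 2 and a line through the group means. No stroke library falls to the sham level, and both receptor subunit genes are highest on day 21.

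The fibroblast markers also stayed high at the times when Osmr, Il6st and Stat3 did. Their 8 genes summed to 1631 and 2385 CPM on day 1, 5537 and 22563 on day 3, 27327 and 53767 on day 21, and 18573 and 30182 on day 60. No fibroblast marker was at 0 in any library. At each of the 5 times 7 of 8 were called higher than sham, all but Dpt, where 16.7% to 23.2% of all genes were. Over the same times the astrocyte markers summed to 3884 and 11985 CPM on day 1, 1999 and 1393 on day 7 and 3082 and 2757 on day 60. The part of cells other than astrocytes in the receptor, Stat3 and Socs3 levels was not tested.

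How much of its peak each gene kept on day 60 divided the 9 genes. In replicates 1 and 2, the day 60 level was 0% and 0.0322% of the highest group for Il11, and 0.157% and 0.640% for Lif. It was 6.50% and 8.32% for Osm and 9.95% and 11.1% for Clcf1. Il6 kept 42.5% and 49.0%, unlike the other ligands. Osmr kept 24.4% and 63.5%, Il6st 35.3% and 85.1%, Stat3 56.9% and 71.8%, and Socs3 51.7% and 84.4%.

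The difference between late and early times was tested as the mean of days 21 and 60 against the mean of days 1 and 3. Of the 9 genes 5 were called, 3 lower and 2 higher, where 16.9% of all genes tested were called (8.15% lower and 8.72% higher). Il11 was lower late by 7.88 on the log2 scale (-7.88 ± 1.01, adjusted p = 0.000949), Lif by 5.26 (-5.26 ± 0.86, adjusted p = 0.00325) and Clcf1 by 2.28 (-2.28 ± 0.50, adjusted p = 0.0132). The Clcf1 call was lost without day 21 replicate 2 (adjusted p = 0.0745). Il6st was higher late by 1.33 ± 0.32 (adjusted p = 0.0197), a call lost without day 3 replicate 2, day 21 replicate 1 or day 60 replicate 2 (adjusted p = 0.0545, 0.0766 and 0.0616). Osmr was higher late by 0.91 ± 0.27 (adjusted p = 0.0416), but this call was kept in 1 of 12 fits that left out 1 library, with adjusted p up to 0.145. Il6 (-0.70 ± 0.59), Osm (-1.33 ± 0.77), Stat3 (0.15 ± 0.27) and Socs3 (-0.51 ± 0.51) were not called.

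Between neighbouring times few changes could be called with 2 libraries per group. From day 1 to day 3, 1 of 9 genes was called, where 3.57% of all genes were called (3.09% higher, 0.480% lower). It was Il11, which fell by 6.75 on the log2 scale (-6.75 ± 1.33, adjusted p = 0.0228), a call lost without day 1 replicate 1 or day 3 replicate 2 (adjusted p = 0.0568 and 0.106). Lif (-4.09 ± 1.11, adjusted p = 0.0814), Clcf1 (-2.15 ± 0.69) and Osm (2.88 ± 1.14) were not called. With the replicate block, which called 8.40% of all genes, 3 genes were called, since Lif (-4.22, adjusted p = 0.0104) and Osm (2.75, adjusted p = 0.044) joined Il11. DESeq2, which called 9.02% of all genes, called 4, with Lif, Clcf1 and Osm beside Il11.

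From day 3 to day 7 edgeR called 0 of 9, where 6.29% of all genes were called (3.06% higher, 3.22% lower). At an unadjusted p under 0.05 there were 3, Il11 (-2.94 ± 1.14), Osmr (1.35 ± 0.38) and Stat3 (0.94 ± 0.38), where 3857 of all 15635 genes passed. The replicate block called 2, Osmr (1.35, adjusted p = 0.0209) and Stat3 (0.90, adjusted p = 0.0414), and DESeq2 called 2, Osmr and Il11. In these fits 18.2% and 16.2% of all genes were called, so 2 of 9 is near the background. From day 7 to day 21 edgeR, with and without the block, and DESeq2 called 0 of 9. Of all genes 0.441% were called in edgeR without the block (0.243% higher, 0.198% lower), 4.06% with it and 6.47% in DESeq2. At an unadjusted p under 0.05 edgeR without the block held 0 of the 9, where 2099 of all 15635 genes passed. From day 21 to day 60 all of these fits again called 0 of 9, where 0% of all genes were called in edgeR without the block, 0.134% with it and 0.729% in DESeq2. Without the block 2 genes had an unadjusted p under 0.05, Osmr (-1.24 ± 0.38) and Lif (-2.79 ± 1.19), where 847 of all 15635 genes did. A gene that was not called may still have differed.

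The course of the 9 genes was also compared across the 12 libraries by the correlation of log2 CPM, which describes these libraries and carries no test, since the genes share libraries, depth and the step from sham to stroke. Il11 and Lif moved together (Pearson r = 0.904), while r of Il11 with Il6st was -0.026. Osmr moved with Stat3 (r = 0.955) and with Il6st (r = 0.941), and Il6 moved with Socs3 (r = 0.943). Among 11431 other genes with at least 10 CPM in their highest group, the 5 most like Il6 were Cebpd (r = 0.970), a transcription factor gene of the acute phase, then Osgin1, Ccl7, Adamts9 and Hsd3b7 (r down to 0.959). The 5 most like Osm were Il1a (r = 0.948), the gene of interleukin-1 alpha, then Ccl3, Nfkbid, Neurl3 and Syngr2. Among the 5 most like Osmr were Lama4 (r = 0.973), a laminin gene, Slc20a2, Parp12 and H6pd. The 5 most like Stat3 were Trp53 (r = 0.978), the gene of p53, then Nup98, Rbms1, Ltbr and Qsox1.

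Cntf, the ciliary neurotrophic factor gene, is another ligand gene of the family. It was called on none of days 1, 3, 7, 21 and 60 and lay at or below 1.46 CPM in every library.

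The other receptor subunit genes are 6 in number. Against sham 2, 2, 3, 4 and 3 of them were called higher on days 1, 3, 7, 21 and 60, and none lower, where 16.7%, 18.0%, 23.2%, 17.8% and 16.8% of all genes were called higher. Il31ra is one of them on each day, and its day 3 level is too low for that call to be read as a rise. Il27ra, a receptor chain for interleukin-27, rose at all 5 times, by 3.60 ± 0.55 on day 1 (adjusted p = 0.00238) and 2.83 ± 0.54 on day 60. Il11ra1, the chain that binds interleukin-11, held 79.4 and 96.5 CPM in sham, 101 and 173 on day 1, 304 and 583 on day 7, and 561 and 567 on day 60. It was not called on day 1 (0.64 ± 0.56), when Il11 peaked, and it rose by 2.33 ± 0.58 on day 7 (adjusted p = 0.00906) and 2.68 ± 0.59 on day 60 (adjusted p = 0.008). Mice carry a near-identical copy of this gene, and how reads that match both were counted is not given in the sources used here, so its level is uncertain.

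Il6ra, the chain that binds interleukin-6, was called only on day 21 (1.76 ± 0.50, adjusted p = 0.0223), with 5.14 and 3.52 CPM in sham and 13.8 and 15.4 on day 21. Lifr, the leukemia inhibitory factor receptor gene, was called at none of the 5 times but was higher late than early by 1.07 ± 0.30 (adjusted p = 0.0359). Cntfr, the ciliary neurotrophic factor receptor gene, was called in none of the 10 comparisons. Il31ra, which pairs with Osmr to bind interleukin-31, had 0 counts in both sham libraries. It held 2.50 and 1.52 CPM on day 1, 0 and 0.164 on day 3, 0.470 and 0.856 on day 7, 14.5 and 10.4 on day 21, and 6.70 and 15.8 on day 60. Against a floor of 3 counts per sham library it was at least 19.3-fold higher on day 1, at least 119-fold on day 21 and at least 108-fold on day 60, while on day 3 its mean was under the floor.

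On the scale of CPM per kilobase of exon, the receptor chains differed widely in level. On day 1, when the Il11 level was 420 ± 89.1 (SD), Il11ra1 was at 30.6 ± 11.4, Il6st at 16.0 ± 5.06, Osmr at 8.98 ± 1.05, Lifr at 1.33 ± 0.236 and Il6ra at 0.709 ± 0.189. On day 60 Il11ra1 was at 126 ± 1.001, Il6st at 29.3 ± 12.1, Osmr at 8.42 ± 4.46, Lifr at 2.38 ± 0.216 and Il6ra at 0.641 ± 0.218. Il6ra thus stayed near the bottom of this order, and the Il6 level on the same scale was 15.0 ± 8.31 on day 1 and 6.69 ± 3.11 on day 60.

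Of the 4 Janus kinase genes, Jak1, the main kinase of gp130, rose at all 5 times, by 1.17 ± 0.35 on day 1 (adjusted p = 0.0309) and 2.15 ± 0.37 on day 7 (adjusted p = 0.00119). Jak3 rose on days 1, 3 and 7 (2.87 ± 0.51 on day 1), Jak2 on days 21 and 60 (1.71 ± 0.48 and 1.47 ± 0.47) and Tyk2 on day 7 (1.37 ± 0.49). Over all genes 16.7%, 18.0%, 23.2%, 17.8% and 16.8% were called higher on days 1, 3, 7, 21 and 60. Of the 6 other STAT genes 4, 4, 4, 5 and 4 were called higher on these days, and none lower. Among them Stat2, which takes part in the interferon response, rose at every time, by 2.85 on day 1 (adjusted p = 0.00813) and 3.45 on day 60 (adjusted p = 0.00331), and so did Stat5a and Stat6. The exons that Stat5a shares with Stat3 put the Stat5a values under the same limit as those of Stat3.

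Of 15 other inhibitor genes of JAK-STAT signalling 3, 5, 6, 4 and 3 were called higher on days 1, 3, 7, 21 and 60, and 1, 1, 2, 0 and 0 lower. The share called higher on days 1 and 60, 3 of 15, is near the 16.7% and 16.8% of all genes, and 1 of 15 lower on day 1 is below the 13.9% of all genes. Socs1, the inhibitor closest in function to Socs3, rose at all 5 times, by 2.35 ± 0.45 on day 1 (adjusted p = 0.0053) and 4.54 ± 0.49 on day 7 (adjusted p = 0.000134). It held 3.05 and 2.04 CPM in sham and 58.5 and 59.0 CPM on day 7, its highest group in both replicates. Ptpn2, a phosphatase that acts on STAT proteins, rose at every time as well (1.85 ± 0.40 on day 1). Ptpn6, a phosphatase mainly of blood cells, was not called on day 1 and rose by 4.04 ± 0.52 on day 7. Socs7 was lower on days 1, 3 and 7 (-2.92 ± 0.95, -2.86 ± 0.95 and -3.89 ± 1.005), and its sham libraries differed, at 52.6 and 17.4 CPM.

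Of 20 genes known to be induced through STAT3, 15, 16, 12, 12 and 11 were called higher on days 1, 3, 7, 21 and 60, and 1, 0, 1, 0 and 1 lower, where 16.7% to 23.2% of all genes were called higher. The median of the 20 was 2.75, 3.78, 2.09, 2.78 and 2.54, beside the medians of all genes given above. Bcl3, a nuclear cofactor of NF-kB, was called at all 5 times, among them by 4.32 ± 0.38 on day 1, 3.86 ± 0.37 on day 7 and 3.79 ± 0.37 on day 60. Lcn2, which encodes the iron-binding protein lipocalin-2, held 4.30 and 5.51 CPM in sham, 284 and 331 on day 1, 45.4 and 90.7 on day 3, 4.97 and 7.36 on day 7, 1344 and 2113 on day 21, and 1354 and 1498 on day 60. It thus had 2 phases, with day 7 overlapping sham, and rose by 5.97 ± 0.53 on day 1 (adjusted p = 0.000349) and 8.46 ± 0.59 on day 21 (adjusted p = 4.3e-05). On day 7 its change of 0.33 ± 0.43 was not called, although Socs3 and Stat3 were.

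Members of that list parted between early and late times. Late against early, 4 of the 20 were called higher and 7 lower, where 8.72% and 8.15% of all genes were. The 4 higher were Lcn2 (3.44 ± 0.33), the acute phase genes Saa3 (5.21 ± 0.48) and Hp (4.31 ± 0.42), and the adhesion gene Icam1 (1.29 ± 0.37). Among the 7 lower were Gfap (-2.28 ± 0.45), the intermediate filament gene of reactive astrocytes, Serpina3n (-3.09 ± 0.50) and Lrg1 (-3.33 ± 0.61). Gfap held 161 and 175 CPM in sham, 1469 and 4143 on day 3 and 186 and 178 on day 60, when it was not called (0.11 ± 0.61). Most of the 20 are also induced through other pathways, and the part of STAT3 in them was not tested.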

How the data were processed

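RNA was sequenced from 12 libraries of sorted cortical astrocytes in 6 groups of 2. The authors deposited raw counts per gene symbol, which per the submitters' processing notes were made with Bowtie2 2.3.4.2 and HTSeq 0.6.1 on mm10. The annotation, strand setting, pooling and handling of reads that match several genes are not given in the sources used here. Comparing the joint table with the files of single samples, 189288 of 189288 values were the same.

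Tests used edgeR 4.0.16 under R 4.3.3. The filter was filterByExpr (minimum count 10), which left 15635 of 15774, and all 9 members passed. One quasi-likelihood fit held all 12 libraries (6 residual and 4.15 prior degrees of freedom), and Benjamini-Hochberg adjustment ran over all genes in each comparison. The standard error is the change divided by the square root of F. CPM values use TMM factors (0.689 to 1.22), and levels per kilobase divide them by the merged exon length in GENCODE M21 (GRCm38, the same assembly as mm10). Correlations used log2 CPM with a prior count of 2. The script was tested on simulated data for a single comparison with sham. Those data held no replicate effect, so they do not show how the fit performs under the pairing described below.

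Same-numbered replicates deviated together in 15 of 15 pairs of groups (r = 0.319 to 0.713, above 0.1). This pairing was read from the data and not from the labels. The main fit did not include it, so its changes, standard errors and adjusted p ignore the pairing. A block for the replicate entered only an alternative fit, which kept 42 of 42 calls and gained 6. Alternatives were that replicate block, DESeq2's size factors within edgeR, DESeq2 1.42.0 with its Wald test, no filter, leaving out each library, and, chosen after seeing the data, leaving out both day 7 libraries. Intervals cover counting error only.

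The 9 genes and the lists were chosen with earlier results of these data known. Named are the 9 genes throughout, up to 4 genes of each pathway list per comparison with sham (the called genes of largest change, or, with under 2 calls, those of highest level), family ligands and receptors, and the 5 genes most like Il6, Osm, Osmr and Stat3. Jak2, Tyk2, Stat5a at single times, Bcl3, Lrg1, Serpina3n, Icam1, Gfap and Lcn2 at times outside this rule were named after their values were seen. A few genes that this rule would name are not reported here.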

Additional observations from a re-analysis of the deposited data

Results flagged for a closer look

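For 6 results the change against sham differed between times by a test of the difference itself, in edgeR's quasi-likelihood fit with 2 libraries per group. The Il11 change at day 3 was lower than that at day 1 by a log2 difference of -6.75 (adjusted p = 0.0228), with both day 3 libraries below both day 1 libraries. At days 21 and 60 together, against days 1 and 3 together, the Il11 change differed by -7.88 (adjusted p = 0.000949), the Lif change by -5.26 (adjusted p = 0.00325) and the Clcf1 change by -2.28 (adjusted p = 0.0132). In the same comparison the Osmr change differed by 0.91 (adjusted p = 0.0416) and the Il6st change by 1.33 (adjusted p = 0.0197), both toward a higher late level. Sham levels cancel out of these differences, though the sham libraries still enter the shared estimate of the spread. The Osmr call was kept in 1 of 12 fits that left out 1 library.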

How the results depend on the processing

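Of 42 calls over the 10 comparisons, 41 were kept with DESeq2's size factors, 42 in DESeq2, 42 without the filter and 42 with the replicate block, and the block changed no call other than the 6 gains given above. Without sham replicate 1 some of the 42 were lost, and fewer of all genes were called in each comparison with sham as well. Leaving out both day 7 libraries lost 2 of 35 that this fit could give (Clcf1 at day 60 and Osmr late against early). Under DESeq2's size factors the median log2 change over all genes shifted by -0.088 to -0.14 in the comparisons with sham. No called change took the other sign. The number of genes called from day 1 to day 3 was 4 in DESeq2, 3 with the block and 0 to 2 when 1 library was left out. From day 3 to day 7 it was 2, 2 and 0 to 1. Late against early it was 3 to 5 when 1 library was left out. The uncalled Lif change at day 21 was -0.093 with DESeq2's size factors, -0.035 in DESeq2, -0.56 with the block and -1.15 to 0.74 when 1 library was left out. Other uncalled changes took both signs when 1 library was left out. Against sham these were Lif at day 3 (-0.38 to 2.64) and Il11 at day 21 (-0.13 to 3.69) and day 60 (-7.39 to 1.47). From day 1 to day 3 they were Il6st (-0.49 to 0.27) and Socs3 (-1.33 to 0.92). From day 3 to day 7 they were Il6 (-2.33 to 0.40), Lif (-2.09 to 0.93), Osm (-1.85 to 1.10) and Socs3 (-0.51 to 1.24). From day 7 to day 21 they were Lif (-1.71 to 0.072), Osm (-1.20 to 0.15), Socs3 (-0.998 to 0.10) and Stat3 (-0.46 to 0.12). From day 21 to day 60 they were Clcf1 (-0.28 to 0.51), Socs3 (-0.37 to 0.42) and Il6 (-0.40 to 0.61). Late against early they were Socs3 (-0.83 to 0.051), Il6 (-1.11 to 0.25) and Stat3 (-0.055 to 0.28). The cause was not tested. Where 1 library was left out, the lone library of its group is assumed to vary like the others. Replicate 1 was the shallower library in each group, and 3 counts there stood for 0.172 CPM on day 60, so a lower level could not be told from 0.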

Other observations

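Genes known to induce Il6 and Lif were also raised. Of 10 such genes 10, 9, 9, 9 and 8 were called higher than sham on days 1, 3, 7, 21 and 60, and none lower, where 16.7% to 23.2% of all genes were called higher, in edgeR's quasi-likelihood test. Tnf, the tumor necrosis factor gene, held 0.299 and 0.346 CPM in sham, 21.3 and 9.42 on day 1, 149 and 78.9 on day 3, and 8.76 and 9.25 on day 60. It was highest on day 3 in both replicates, as Osm was in replicate 1, and rose by 8.42 ± 0.73 there (adjusted p = 0.000139). Il1b, the interleukin-1 beta gene, rose by 5.53 ± 0.76 on day 3 and 2.39 ± 0.66 on day 60. Cebpb, a transcription factor gene of the acute phase, rose at all 5 times and to its highest mean on day 60 (5.29 ± 0.44, adjusted p = 6.9e-05), with 46.1 and 44.0 CPM in sham and 2106 and 1410 CPM on day 60. Fosl1, which encodes a subunit of the AP-1 factor, was called on day 1 (5.76 ± 1.83, adjusted p = 0.0376), with 20.5 and 86.0 CPM there against 0 and 1.79 in sham. On day 3 it held 3.23 and 10.2 CPM and was not called (2.78, adjusted p = 0.21), and the difference between these days was not called either (-2.98, adjusted p = 0.414).

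Some of the 9 genes differed between replicates in the same direction throughout. Il6 and Socs3 were higher in replicate 1 in 6 of 6 groups, and Stat3 was higher in replicate 2 in 6 of 6. Lif and Osm were higher in replicate 1 in 5 of 5 stroke groups. Replicate 2 of each group was 6.30 to 9.63 times as deep as replicate 1. Depth and any other difference between the replicates cannot be told apart.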
